A study of Pimephales promelas with 139 samples.

Results

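The 60 transcripts described here were chosen for high levels in a part of the fathead minnow larvae held in 10 ng/L ethinyl estradiol. Out of 37085 counted transcripts, they were chosen by their CPM values in the 10 ng/L and control larvae. All levels are CPM, counts per 1000000 reads counted in the library. A transcript was kept if its 90th percentile over the 10 ng/L larvae was at least 1 CPM and if the 10 ng/L median was less than 3 times the sum of the control median and 0.05 CPM, which left 31133 transcripts. The 60 members are those with the highest ratio of the 10 ng/L 90th percentile to the sum of the highest control larva and 0.05 CPM. All statements on 10 ng/L against control are therefore descriptions without a test.

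Fathead minnows (Pimephales promelas) are small freshwater fish used in toxicity testing, and ethinyl estradiol (EE2) is the synthetic estrogen of oral contraceptives. The groups are 29 control larvae with 0 ng/L, then 17, 30, 18, 17 and 28 larvae at 0.12, 1.2, 2.5, 5 and 10 ng/L, in that order. Every group spans 3 experiments, and at 10 ng/L these hold 10, 9 and 9 larvae. Larvae entered static exposure 48 h after hatching, stayed in it for 48 h and were taken whole at 96 h; the labels give no strain, genotype or sex. Each library is 1 larva, named below by its concentration and the number in its sample title. Vessels and parentage are not labelled, so a p-value reflects the spread between libraries, whatever its source.

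Estrogens act in fish through nuclear estrogen receptors, which bind the hormone and then switch on target genes. The best known targets in fish liver are the vitellogenins, the yolk precursor proteins that even males and juveniles make when they are exposed. A mean over larvae can move because all larvae shift a little or because a few shift a lot, and the members were picked for the second kind of pattern. In a whole larva a higher level can come from more cells of a type or from more RNA per cell, and these cannot be told apart here. The counts come with transcript identifiers and without gene names, so no role can be given to any member and no cell type marker could be looked up.

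Depth ran from 8.76 to 32.9 M reads (M, 1000000) per library, with medians of 22.1 M at 10 ng/L and 23.6 M in controls. Of the 9 libraries under 0.5 times the median total, 4 were at 10 ng/L and 1 was a control. At 1 CPM a library of median depth holds about 23.5 reads, so the lowest members rest on few reads. Larva 7 at 2.5 ng/L stands apart from the other libraries, with a read in 30768 transcripts against at least 34800 in every other larva, and a TMM scaling factor of 0.468 against at least 0.785. The values of the 2.5 ng/L group were also computed without it. FMt030408, a transcript that rises with concentration in these data, was at 79.9 to 301 CPM in the 10 ng/L larvae, against 0.174 to 1.07 CPM in controls. No 10 ng/L larva overlapped with a control for it.

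The list is steep at its head and flat at its tail. The ratio that ranked the members ran from 14.7 to 1.37 with a median of 1.53, and 7 members had a ratio above 2. The last 3 members, FMt042100, FMt009085 and FMt034176, had ratios of 1.38, 1.38 and 1.37. The first 3 transcripts outside the list, FMt016155, FMt033744 and FMt045980, had 1.37, 1.36 and 1.36, so the limit falls between nearly equal values. Members lay above their highest control in 3 to 19 of 28 larvae at 10 ng/L, with a median of 6. The 90th percentile of the 10 ng/L larvae exceeded the highest control for 6.76% of the 31133 kept transcripts and, through the choice, for all 60 members. In abundance the members spread widely. The highest control was under 1 CPM for 9 of them and over 10 CPM for 23.

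**Figure D1:**
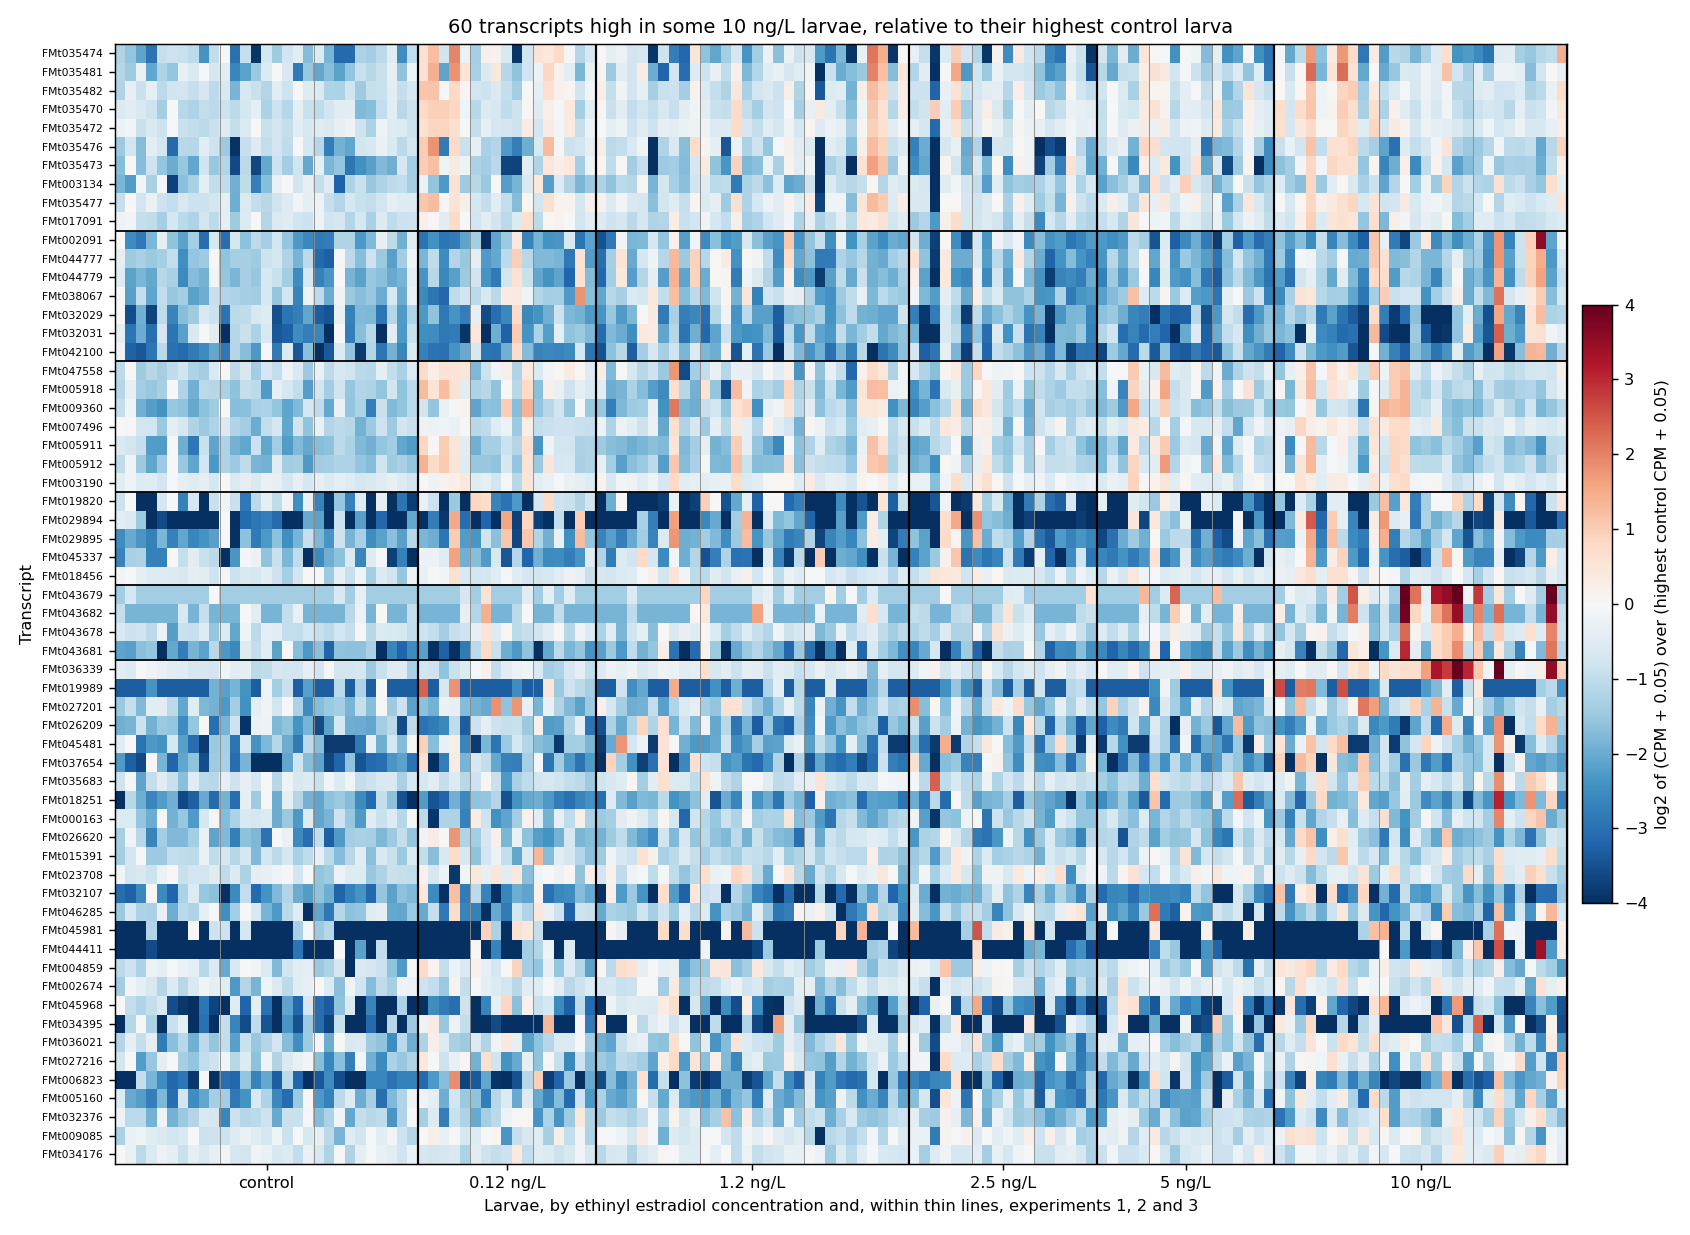
Each row is a member and each column a larva, ordered by concentration and experiment; colour gives log2 of (CPM + 0.05) over (highest control CPM + 0.05), cut at both ends of the colour bar. Red cells lie above the highest control; black lines across set off the 5 blocks of members that go together at 10 ng/L, in the order of the text's block sizes 10, 7, 7, 5 and 4, with the other 27 members below.

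The head of the list holds 4 transcripts with near-consecutive identifiers, FMt043678, FMt043679, FMt043681 and FMt043682, ranked 5, 1, 6 and 3. Reads shared between similar transcripts could link their counts, since the sources used here do not say how such reads were assigned. FMt043679 ranged from 0 to 3.38 CPM at 10 ng/L with a median of 0.059 CPM, against 0 to 0.0816 CPM with a median of 0 in controls. It had no read in 8 of 28 larvae at 10 ng/L and in 25 of 29 controls, and the highest library held 67 reads at 10 ng/L and 2 in controls. Most 10 ng/L larvae thus overlapped with the controls, while 11 lay above all of them. Of these 11, larvae 57, 13 and 22 rest on 3, 1 and 2 reads, in the range of the 2 reads of the highest control, and the other 8 hold 8 to 67 reads. FMt043682 followed, at 0 to 2.56 CPM with 10 of 28 larvae above the highest control, against 0 to 0.132 CPM in controls.

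FMt043678 and FMt043681 are read in most larvae without exposure. FMt043678 was at 0.801 to 13.4 CPM at 10 ng/L with a median of 2.27 CPM, against 0.553 to 2.71 CPM with a median of 1.47 CPM in controls. FMt043681 was at 0 to 6.59 CPM with a median of 0.413 CPM, against 0 to 0.763 CPM with a median of 0.147 CPM. The groups overlapped for both, and 13 and 9 of 28 larvae lay above the highest control. All 4 transcripts were above their highest control in the same 7 larvae, numbers 33, 42, 43 and 47 of experiment 2 and 52, 57 and 72 of experiment 3. Experiment 1 held none of these, although 6 of its 10 larvae were above for at least 1 of the 4.

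Larva 33 of experiment 2 had the highest level of all 4, with 3.38 CPM of FMt043679, 2.56 CPM of FMt043682, 13.4 CPM of FMt043678 and 6.59 CPM of FMt043681. Its library is shallow, at 10.9 M reads. The next larvae, 72 and 47, had 3.05 CPM each of FMt043679, and larva 47 has an ordinary depth of 21.7 M reads. Some larvae of lower concentrations were above the controls too. At least 1 of the 4 transcripts was above its highest control in 3 of 17 larvae at 0.12 ng/L and 6 of 30 at 1.2 ng/L. At 2.5 and 5 ng/L this held for 4 of 18 and 6 of 17 larvae. The choice favoured transcripts whose highest control was low, so nothing about a response is read from these counts. The highest level of FMt043679 was 0.146, 0.191, 0.147 and 0.615 CPM among larvae at 0.12, 1.2, 2.5 and 5 ng/L, where 1, 2, 2 and 3 larvae exceeded the highest control. In each of the 0.12, 1.2 and 5 ng/L groups a single larva had all 4 transcripts above their highest control, and at 2.5 ng/L there were 0. These larvae are number 28, 27 and 32, in that order. Larvae 28 and 27 have shallow libraries of 13.7 and 10.5 M reads. They hold 2 reads each of FMt043679, as many as the highest control, while larva 32 holds 14.

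FMt036339, ranked 2, was read in every larva and lay above all controls in more larvae than any other member. It was at 1.74 to 81.9 CPM at 10 ng/L with a median of 4.14 CPM, against 1.03 to 2.98 CPM with a median of 1.86 CPM in controls. In the larvae at 10 ng/L, 19 of 28 lay above the highest control and 8 lay above 2 times that level. The highest were larva 47 with 81.9 CPM, larva 57 with 75.5 CPM and larva 72 with 35.6 CPM. By experiment its 10 ng/L median was 2.42, 9.46 and 3.47 CPM in experiments 1, 2 and 3, against control medians of 2.14, 1.86 and 1.78 CPM, and 4 of 10, 9 of 9 and 6 of 9 larvae were above the highest control. Larvae at 0.12, 1.2, 2.5 and 5 ng/L reached 3.44, 4.87, 3.36 and 3.47 CPM, with 1, 1, 2 and 3 of them above the highest control. The value of 3.36 CPM is from larva 7 at 2.5 ng/L, without which the highest of that group was 3.18 CPM and 1 larva was above.

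The larvae high in FMt036339 overlap with those high in the FMt043679 run, but the levels are not proportional. All 11 larvae above the highest control for FMt043679 were among the 19 above it for FMt036339. Larva 57, second for FMt036339, had 0.131 CPM of FMt043679, while larva 33, first for FMt043679, had 4.85 CPM of FMt036339. Over the 28 larvae, with experiment medians subtracted, Spearman's rho between these transcripts was 0.50. It was -0.18 over 29 controls. Over the 17, 30, 18 and 17 larvae of the groups from 0.12 to 5 ng/L it was 0.29, 0.09, -0.39 and -0.11. Outside 10 ng/L most larvae had no read of FMt043679, so rho there says little about co-variation. Many 10 ng/L larvae also held no or few reads of it, so the rho of 0.50 ranks many low counts too. Neither FMt036339 nor FMt043679 followed the amount of FMt030408 within the 10 ng/L group. There rho with FMt030408 was -0.04 for FMt036339 and 0.03 for FMt043679. Larvae 47, 57 and 72, the highest for FMt036339, had 115, 79.9 and 173 CPM of FMt030408, against a group median of 170 CPM. Larva 42, next for FMt036339, had 301 CPM of FMt030408, the highest of the group.

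**Figure D2:**
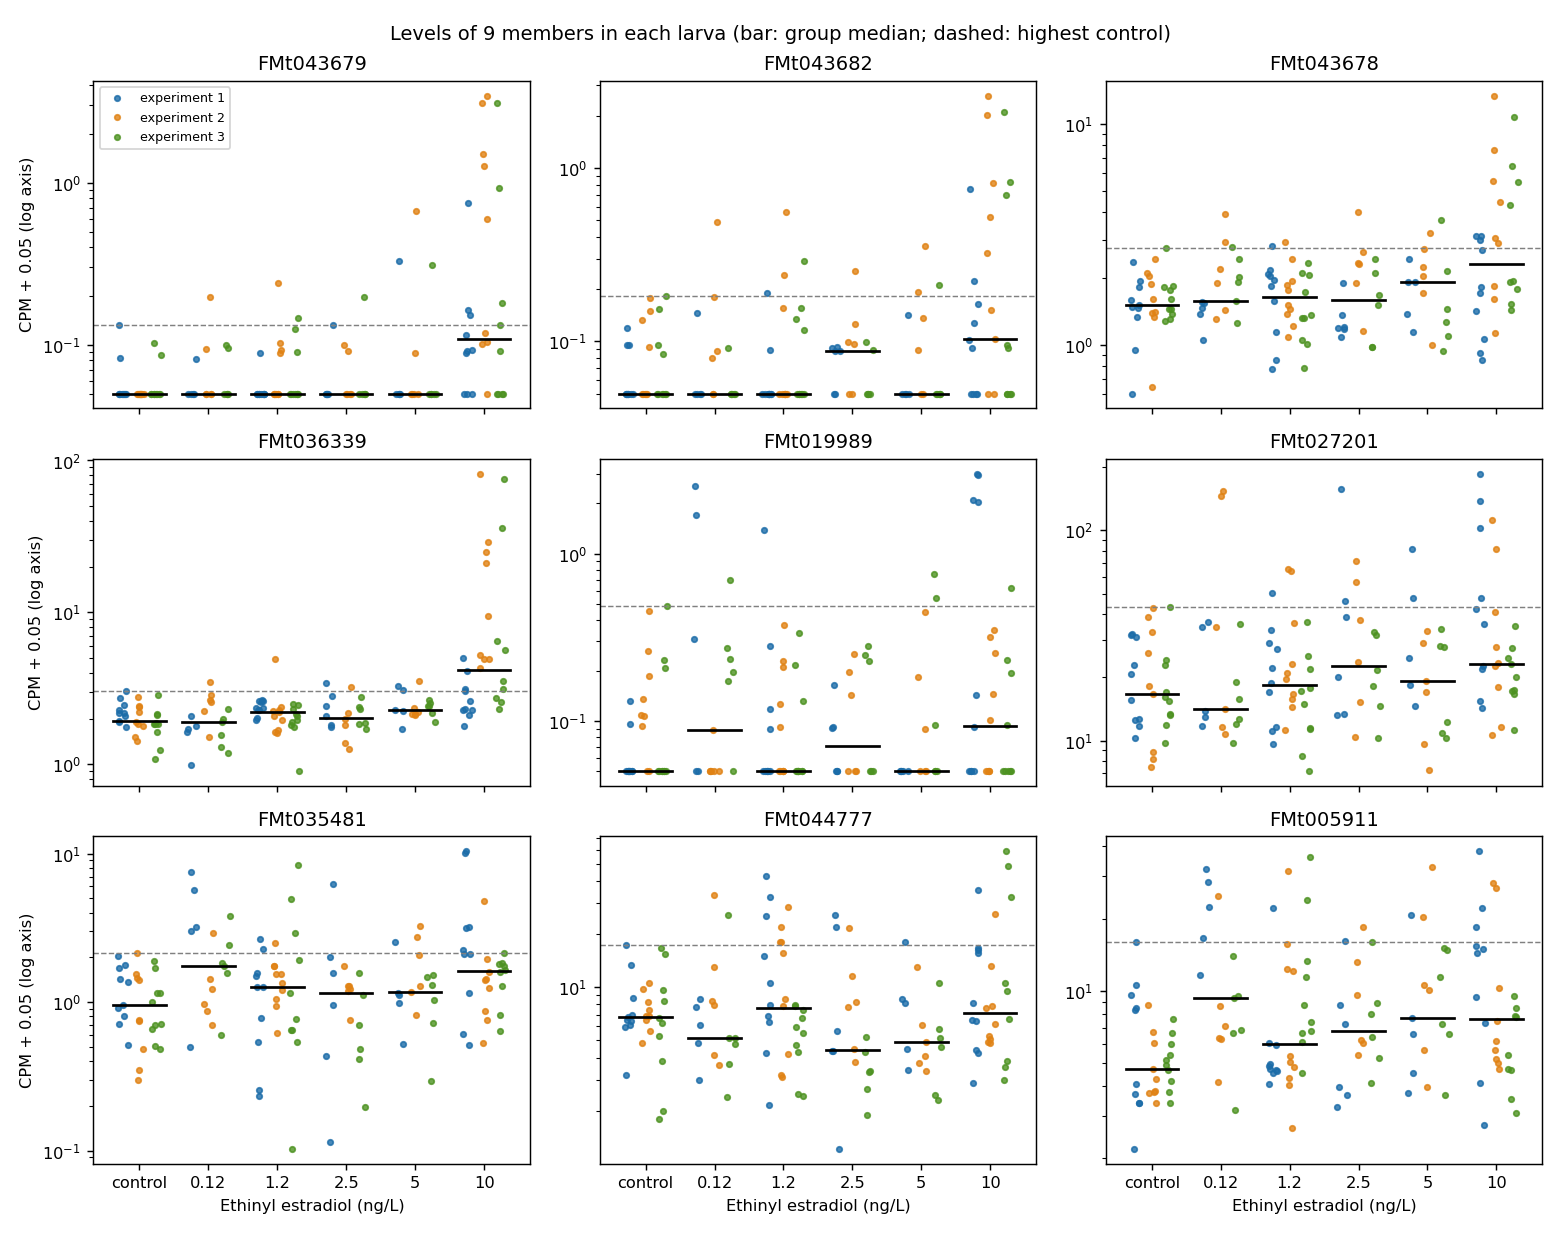
CPM + 0.05 on a log axis in each of 139 larvae for 9 members, by concentration from control to 10 ng/L and coloured by experiment; bars are group medians and dashed lines the highest control. FMt043679, FMt043682, FMt043678 and FMt036339 have their highest larvae at 10 ng/L in experiments 2 and 3. All 9 members have larvae above the highest control at lower concentrations too. At 5 ng/L FMt043679 reached 0.615 CPM, against 0.0816 CPM in the highest control.

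FMt019989, ranked 4, marked other larvae. It ranged from 0 to 2.96 CPM at 10 ng/L, against 0 to 0.439 CPM in controls, and both medians were below 0.05 CPM. The level was 1.99 to 2.96 CPM in larvae 2, 7, 8 and 17, all of experiment 1, and the next highest larva had 0.574 CPM. Only 1 of the 5 larvae above the highest control for FMt019989 was also above for FMt043679. High larvae were not restricted to 10 ng/L: larvae 2 and 12 at 0.12 ng/L, again of experiment 1, had 2.47 and 1.64 CPM, and larva 18 at 1.2 ng/L had 1.33 CPM.

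FMt027201, ranked 7, is far more abundant. It was at 10.6 to 186 CPM at 10 ng/L with a median of 23.2 CPM, against 7.48 to 43.3 CPM with a median of 16.6 CPM in controls. The larvae above the highest control were 4 of 10 in experiment 1, 2 of 9 in experiment 2 and 0 of 9 in experiment 3. Larvae of other concentrations reached similar levels, with 153 CPM in larva 32 of the 0.12 ng/L group and 157 CPM in larva 2 of the 2.5 ng/L group.

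Many of the members fall into sets that go together over the larvae at 10 ng/L. Pairwise Spearman correlations of log2(CPM + 0.05) over the 28 larvae at 10 ng/L, with experiment medians subtracted, had a median of 0.10 over all 1770 pairs, so the list as a whole does not move as 1 unit. Joining members by average linkage down to a rho of 0.5 gave 5 blocks of at least 4 members with 33 members in all, 8 pairs and 11 members on their own. The FMt043678 to FMt043682 run is 1 of the blocks. At 10 ng/L 154 of the 1770 pairs had a rho over 0.5. There were 52 such pairs in controls and 115, 116, 159 and 142 in the groups from 0.12 to 5 ng/L, which differ in size. How many kept transcripts would join in this way was not computed. Correlations within a library share its depth and composition, and members with neighbouring identifiers may share reads. Of the 60 members, 25 have another member within 15 identifier numbers.

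The largest block has 10 members, of which 8 lie between FMt035470 and FMt035482; the others are FMt003134 and FMt017091. Its best ranked members are FMt035474, FMt035481 and FMt035482. FMt035482 was at 7.35 to 40.9 CPM at 10 ng/L with a median of 14.0 CPM, against 5.33 to 19.5 CPM with a median of 11.1 CPM in controls. FMt035481 was at 0.466 to 10.3 CPM with a median of 1.57 CPM, against 0.248 to 2.09 CPM with a median of 0.91 CPM, and FMt035474 at 0.048 to 2.44 CPM, against 0 to 0.69 CPM. In experiment 1, 7 of 10 larvae had at least 3 block members above their highest control, against 3 of 9 and 1 of 9 in experiments 2 and 3. Of the kept transcripts, the median 10 ng/L larva of these experiments had 3.33%, 2.28% and 2.81% above. The choice used these larvae, so no lean to an experiment is read from the counts. Larvae 8 and 17 had all 10 above.

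Some larvae at the lowest concentration reached similar levels of this block. FMt035482 reached 42.9, 46.5, 29.3 and 28.7 CPM in larvae at 0.12, 1.2, 2.5 and 5 ng/L, and its median at the lowest of these was 18.4 CPM. The median larva at 0.12 ng/L had 2 of the 10 members above the highest control. By experiment this median was 9, 0.5 and 4 over the 5, 6 and 6 larvae of experiments 1, 2 and 3. Of the kept transcripts, the median larva of these experiments had 2.07%, 3.10% and 2.15% above. The choice favoured transcripts whose highest control was low, so nothing about a response is read from these counts. The members of the block also went together outside the 10 ng/L group. The median rho within the block was 0.53, 0.68, 0.62, 0.54 and 0.61 in the groups from 0.12 to 10 ng/L. In controls it was 0.15. The choice kept the control maxima of all members low, and whether this bears on that value was not tested.

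The second block has 7 members, FMt002091, FMt044777, FMt044779, FMt038067, FMt032029, FMt032031 and FMt042100. All 7 exceeded their highest control in larvae 57, 67 and 68 of experiment 3 and in no other larva at 10 ng/L. FMt002091 was at 0.823 to 129 CPM at 10 ng/L with a median of 3.18 CPM, against 1.26 to 10.9 CPM with a median of 3.54 CPM in controls. Its top value of 129 CPM was in larva 68, followed by 37.3 CPM in larva 57. FMt044777 was at 2.83 to 58.9 CPM with a median of 7.09 CPM, against 1.75 to 17.2 CPM with a median of 6.78 CPM, and FMt044779 at 2.45 to 60.1 CPM with a median of 8.27 CPM, against 3.03 to 19.8 CPM with a median of 6.11 CPM. Each of the 3 lay above all controls in 5 larvae at 10 ng/L, and the groups overlapped in the others. Larva 37 at 0.12 ng/L also had all 7 above, and the highest number in a larva was 4, 3 and 1 in the 1.2, 2.5 and 5 ng/L groups. FMt002091 reached 14.5, 23.04, 11.5 and 7.36 CPM in the groups from 0.12 to 5 ng/L, and FMt044777 reached 33.2, 42.7, 25.7 and 18.01 CPM. The block's median rho was 0.50 in controls and 0.46, 0.56, 0.57, 0.37 and 0.66 in the groups from 0.12 to 10 ng/L.

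The third block, also of 7, holds FMt047558, FMt005918, FMt009360, FMt007496, FMt005911, FMt005912 and FMt003190. All 7 were above their highest control at 10 ng/L in larva 8 of experiment 1 and larvae 28 and 33 of experiment 2. FMt047558 was at 0.435 to 3.11 CPM at 10 ng/L with a median of 1.05 CPM, against 0.464 to 1.38 CPM with a median of 0.676 CPM in controls. FMt005918 was at 0.772 to 7.41 CPM, against 0.555 to 2.87 CPM, and FMt009360 at 3.21 to 64.1 CPM, against 3.53 to 24.5 CPM. Single larvae of lower concentrations reached such levels too. FMt009360 had maxima of 64.5, 106, 38.4 and 71.5 CPM in the groups from 0.12 to 5 ng/L, and FMt047558 was above its highest control in 10 of 17 larvae at 0.12 ng/L, against 9 of 28 at 10 ng/L. Here the median rho was 0.41 in controls and 0.49, 0.63, 0.63, 0.65 and 0.65 in the groups from 0.12 to 10 ng/L.

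The smaller blocks have 5 and 4 members, and their median rho in controls was 0.27 and 0.07. The block of 5, FMt019820, FMt029894, FMt029895, FMt045337 and FMt018456, had a median rho of 0.58 at 10 ng/L, and -0.01, 0.23, 0.39 and 0.11 at 0.12, 1.2, 2.5 and 5 ng/L. FMt029894 was at 0.103 to 42.2 CPM at 10 ng/L with a median of 1.65 CPM, against 0.0461 to 7.71 CPM with a median of 0.601 CPM in controls. It was high in single larvae of every other concentration too, with maxima of 22.9, 23.9, 27.4 and 10.8 CPM in the groups from 0.12 to 5 ng/L and 4, 3, 3 and 3 larvae above the highest control. FMt019820 was at 0 to 4.35 CPM, against 0 to 1.87 CPM, and FMt029895 at 0.445 to 15.8 CPM, against 0.298 to 5.35 CPM. For the 4 members of the FMt043679 block the median rho was 0.72 at 10 ng/L. It was 0.22, 0.16, -0.12 and 0.35 in the groups from 0.12 to 5 ng/L. There FMt043679 and FMt043682 had no or few reads in most larvae, so these values say little about co-variation. Many 10 ng/L larvae also held no or few reads of FMt043679 and FMt043682, so the 0.72 ranks many low counts too. Blocks were formed on the 10 ng/L larvae, so only the other groups show co-variation that the grouping did not use. A higher rho at 10 ng/L than elsewhere follows in part from the grouping, for every block, and is not read as a result.

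**Figure D3:**
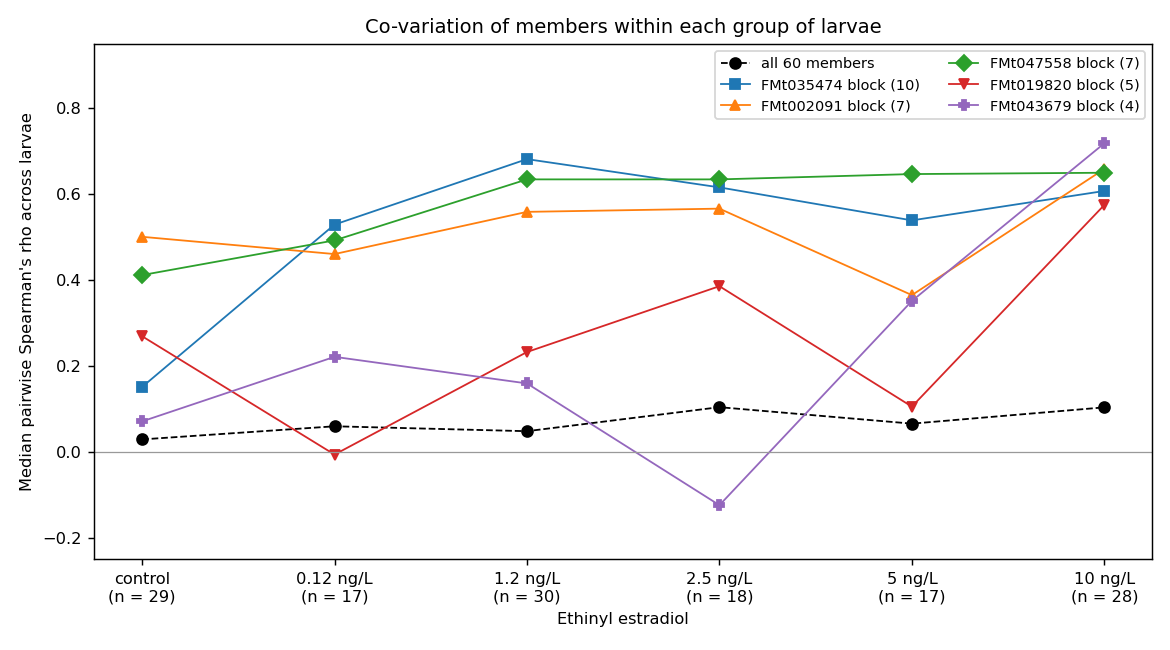
Median pairwise Spearman's rho across the larvae of each group, from control to 10 ng/L, for the 5 blocks (named by their best ranked member, size in brackets) and for all 60 members. The blocks of FMt035474, FMt002091 and FMt047558 lie above all members in every group. The FMt043679 block has 0.72 at 10 ng/L, where the blocks were formed and many larvae had no or few reads of FMt043679. It has at most 0.35 elsewhere, where FMt043679 had no read in most larvae.

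Among the other members of the first 15, FMt026209 was at 0.0565 to 7.28 CPM at 10 ng/L, against 0.0859 to 2.02 CPM in controls, with its highest value in larva 57. FMt045481 was at 0 to 2.35 CPM, against 0 to 0.655 CPM, and was also highest in larva 57. FMt037654 was at 0 to 2.61 CPM, against 0 to 1.06 CPM, with 5 of 10 larvae of experiment 1, 0 of 9 of experiment 2 and 1 of 9 of experiment 3 above the highest control. The control and 10 ng/L ranges overlapped for all 3.

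The other pairs and single members also differ in which larvae are high. The members that pair with one of the first 15 are FMt002674 with FMt019989 (rho 0.59 over 28 larvae at 10 ng/L), FMt046285 with FMt026209 (0.76) and FMt004859 with FMt045481 (0.64). The last member, FMt034176, was at 9.85 to 47.3 CPM at 10 ng/L with a median of 18.4 CPM, against 10.3 to 24.2 CPM with a median of 18.5 CPM in controls, and 4 of its 5 larvae above the highest control were of experiment 3. FMt009085 was at 0.190 to 1.87 CPM, against 0.291 to 1.19 CPM, with 6 of its 10 larvae above in experiment 1. For both the groups overlapped in most larvae.

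The concentration of a member's signal in few larvae varied widely. The 3 highest larvae held 17.8% to 79.7% of the CPM summed over the 28 larvae at 10 ng/L, with a median of 37.2%. Levels above 2 times the highest control were seen in 0 to 9 larvae per member, with a median of 2. By experiment, 33 members were above the highest control in larvae of all 3 experiments, 25 in larvae of 2 experiments and 2 in 1 experiment. The share of larvae above was highest in experiment 1 for 32 members, in experiment 2 for 7 and in experiment 3 for 19, with 2 tied. The single highest larva was of experiment 1 for 25 members, of experiment 2 for 14 and of experiment 3 for 21. These counts rest on the 10 ng/L and control values that chose the members. They were not computed over the kept transcripts, so no lean to an experiment is read from them.

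The number of members that were high differed widely between larvae. At 10 ng/L a larva had from 0 to 35 of the 60 members above their highest control, with a median of 14 (23.3% of the members). Over the kept transcripts the median larva at 10 ng/L had 2.69% above, and as the choice used these larvae nothing is read from the gap. Larva 8 of experiment 1 had 35 and larva 57 of experiment 3 had 31, followed by 27, 26, 26 and 25 in larvae 17, 13, 23 and 7 of experiment 1. Larvae 53 and 58 of experiment 3 had 0 and 1. The medians were 21.5, 12 and 15 in experiments 1, 2 and 3. Larva 57 held the highest level for 13 members, larva 8 for 12 and larva 33 for 8. Transcripts with at least 1 read numbered 36740 in larva 8, 36727 in larva 57 and 36692 in larva 17, in a 10 ng/L range of 35857 to 36745. They numbered 35919, 36482 and 36403 in larvae 13, 23 and 7. Larva 48, with the most at 36745, had 5 members above. Larva 13 has the shallowest library of the series, with 8.76 M reads.

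**Figure D4:**
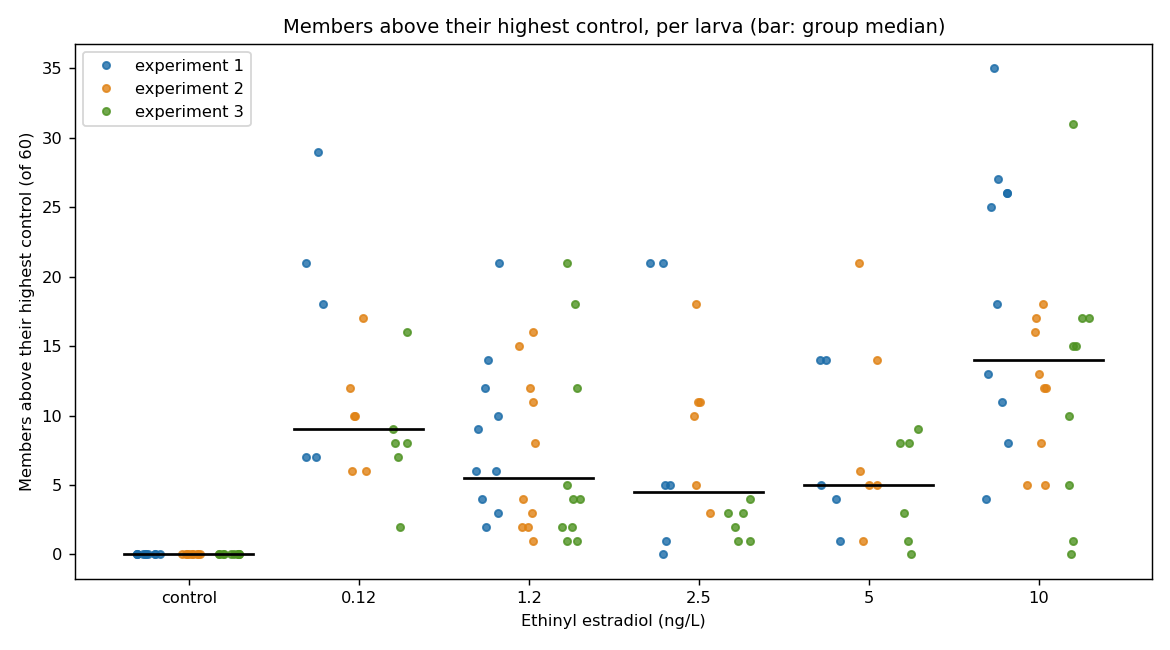
Number of the 60 members above their highest control in each larva, by concentration from control to 10 ng/L and coloured by experiment; bars are group medians. Controls are at 0 by construction, 10 ng/L larvae run from 0 to 35 with a median of 14, and the medians at 0.12, 1.2, 2.5 and 5 ng/L are 9, 5.5, 4.5 and 5.

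Larvae of lower concentrations, whose values did not enter the choice, also had members above the highest control. The count per larva ran from 2 to 29 in the 0.12 ng/L group, from 1 to 21 in the 1.2 ng/L group, and from 0 to 21 in both the 2.5 and the 5 ng/L groups. The median larva of these groups had 9, 5.5, 4.5 and 5 of the 60 members above. These are 15%, 9.17%, 7.5% and 8.33% of the members, against 2.17%, 2.08%, 3.63% and 1.81% of the kept transcripts. The 90th percentile of the group exceeded the highest control for 39 members in the 0.12 ng/L group (6.08% of all kept transcripts), 28 in the 1.2 ng/L group (5.06%), 24 in the 2.5 ng/L group (9.26%) and 27 in the 5 ng/L group (5.76%). Without larva 7 the count at 2.5 ng/L was 26 members, against 8.33% of the kept transcripts. The choice favoured transcripts whose highest control was low, which raises these counts at every concentration, so nothing about a response is read from them or from the counts per larva. The group sizes also differ. In 36 of 60 members, and in 23.6% of the kept transcripts, the highest 10 ng/L larva was above all 82 larvae at 0.12 to 5 ng/L. For 11 members, which include FMt043679, FMt036339, FMt043682, FMt043678 and FMt043681, the 90th percentile of the 10 ng/L larvae was above all 82, which held for 0.482% of the kept transcripts. Both counts rest on the 10 ng/L values that chose the members, so nothing is read from them.

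The choice limited the 10 ng/L median against the control median and ranked members by the 90th percentile. It thus favoured small median shifts beside high single larvae at 10 ng/L, so that contrast is not read as a result. Shifts of the group medians are given as a description. Taken as log2 of the ratio of the group median to the control median, with 0.05 CPM added to both, the median over members was 0.15, 0.09, 0.08, 0.05 and 0.36 in the groups from 0.12 to 10 ng/L, against -0.03, -0.02, -0.04, -0.04 and -0.01 over the kept transcripts. The median was above the control median for 37, 37, 35, 31 and 51 members in these groups and below it for 20, 19, 23, 25 and 8. Of the kept transcripts 40.9%, 42.7%, 38.8%, 39.2% and 45.7% had a higher median than the controls. The choice used the control and 10 ng/L values, so the values of the 10 ng/L group follow from it in part. Those of the lower concentrations are not independent of the choice either. They are taken over the same control medians, and the choice favoured transcripts whose highest control was low. How far this raises them was not tested, so nothing about a response is read from these ratios and counts.

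The same ratio was computed with other groups on top, under the same limits. The highest value was 14.7 for 10 ng/L over control, 8.23, 2.53, 2.64 and 3.09 for 0.12, 1.2, 2.5 and 5 ng/L over control, and 1.94 for control over 10 ng/L. At rank 60 the values were 1.37 for 10 ng/L, and 1.34, 1.24, 1.34 and 1.28 for 0.12, 1.2, 2.5 and 5 ng/L, with 1.18 for control over 10 ng/L. The ratios at 10 ng/L are those that chose and ranked the members, and 17 to 30 larvae stand behind each percentile, so these values are a description and nothing is read from their order. Of the 60 members, 20 were also among the first 60 for 0.12 ng/L over control, and 11, 5 and 6 for 1.2, 2.5 and 5 ng/L; these lists share the controls.

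Whether members changed with concentration was tested in the 82 larvae at 0.12 to 5 ng/L, which the choice did not use. The low-count filter kept 54 of 60 members there; the 6 left out, FMt043679, FMt043682, FMt019989, FMt043681, FMt032107 and FMt044411, had too few reads below 10 ng/L. The test was quasi-likelihood edgeR, with p-values adjusted by Benjamini-Hochberg over all 34425 transcripts tested. No member (0) was called between 1.2 and 0.12 ng/L (0.0116% of all transcripts called), 2.5 and 0.12 ng/L (0.0174%) or 5 and 0.12 ng/L (0.0145%). The smallest adjusted p-values of a member were 1.00, 0.709 and 0.5498. Unadjusted edgeR p-values under 0.05 were found for 2, 11 and 4 members, which are 3.70%, 20.4% and 7.41% of the 54, against 1.81%, 6.97% and 2.23% of all transcripts. Both limma-voom and DESeq2 called 0 members in each comparison. The joint test over the 4 concentrations and the trend on log2 concentration called 0 members too (0.0203% of all transcripts in each), with 5 and 9 members (9.26% and 16.7%) at an unadjusted p under 0.05, against 4.81% and 2.82% of all transcripts. Without larva 7 at 2.5 ng/L, 0 members were called in these 5 tests. The 2.5 over 0.12 ng/L comparison then had 8 members at such a p and the joint test had 3. The smallest adjusted p at 2.5 over 0.12 ng/L was then 0.999. With all larvae, most of the 11 members at 2.5 over 0.12 ng/L belong to the FMt035474 block. Members of a block go together over larvae, so the shares in this paragraph do not count separate results.

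Most estimates were below 0, with no member called. Log2 changes were below 0 for 37, 39 and 41 of 54 members at 1.2, 2.5 and 5 ng/L over 0.12 ng/L, with medians of -0.21, -0.22 and -0.26, against medians of -0.00, -0.00 and -0.01 over all transcripts. Over all transcripts 49.3%, 49.0% and 48.1% of the changes were above 0, and the 3 comparisons share the 0.12 ng/L larvae. Members of a block also go together, so the members below 0 are not separate results. SEs of a member were 0.14 to 1.08 at 5 over 0.12 ng/L with a median of 0.35. FMt036339, with a median of 2.21 CPM at 5 ng/L against 1.84 CPM at 0.12 ng/L, differed by 0.32 ± 0.16 (SE, log2; edgeR adjusted p = 1.00), with a 95% interval of 0.01 to 0.62. FMt043678 differed by -0.01 ± 0.17. The highest estimate at 5 over 0.12 ng/L, 1.71 ± 0.44 for FMt018251 (edgeR adjusted p = 0.5498), was not called. Its group medians were 0.294 CPM at 5 ng/L against 0.229 CPM at 0.12 ng/L. At 5 ng/L larvae 57 and 27 held 169 and 78 reads of it, and the others 1 to 28. This transcript is named after its value was seen.

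**Figure D5:**
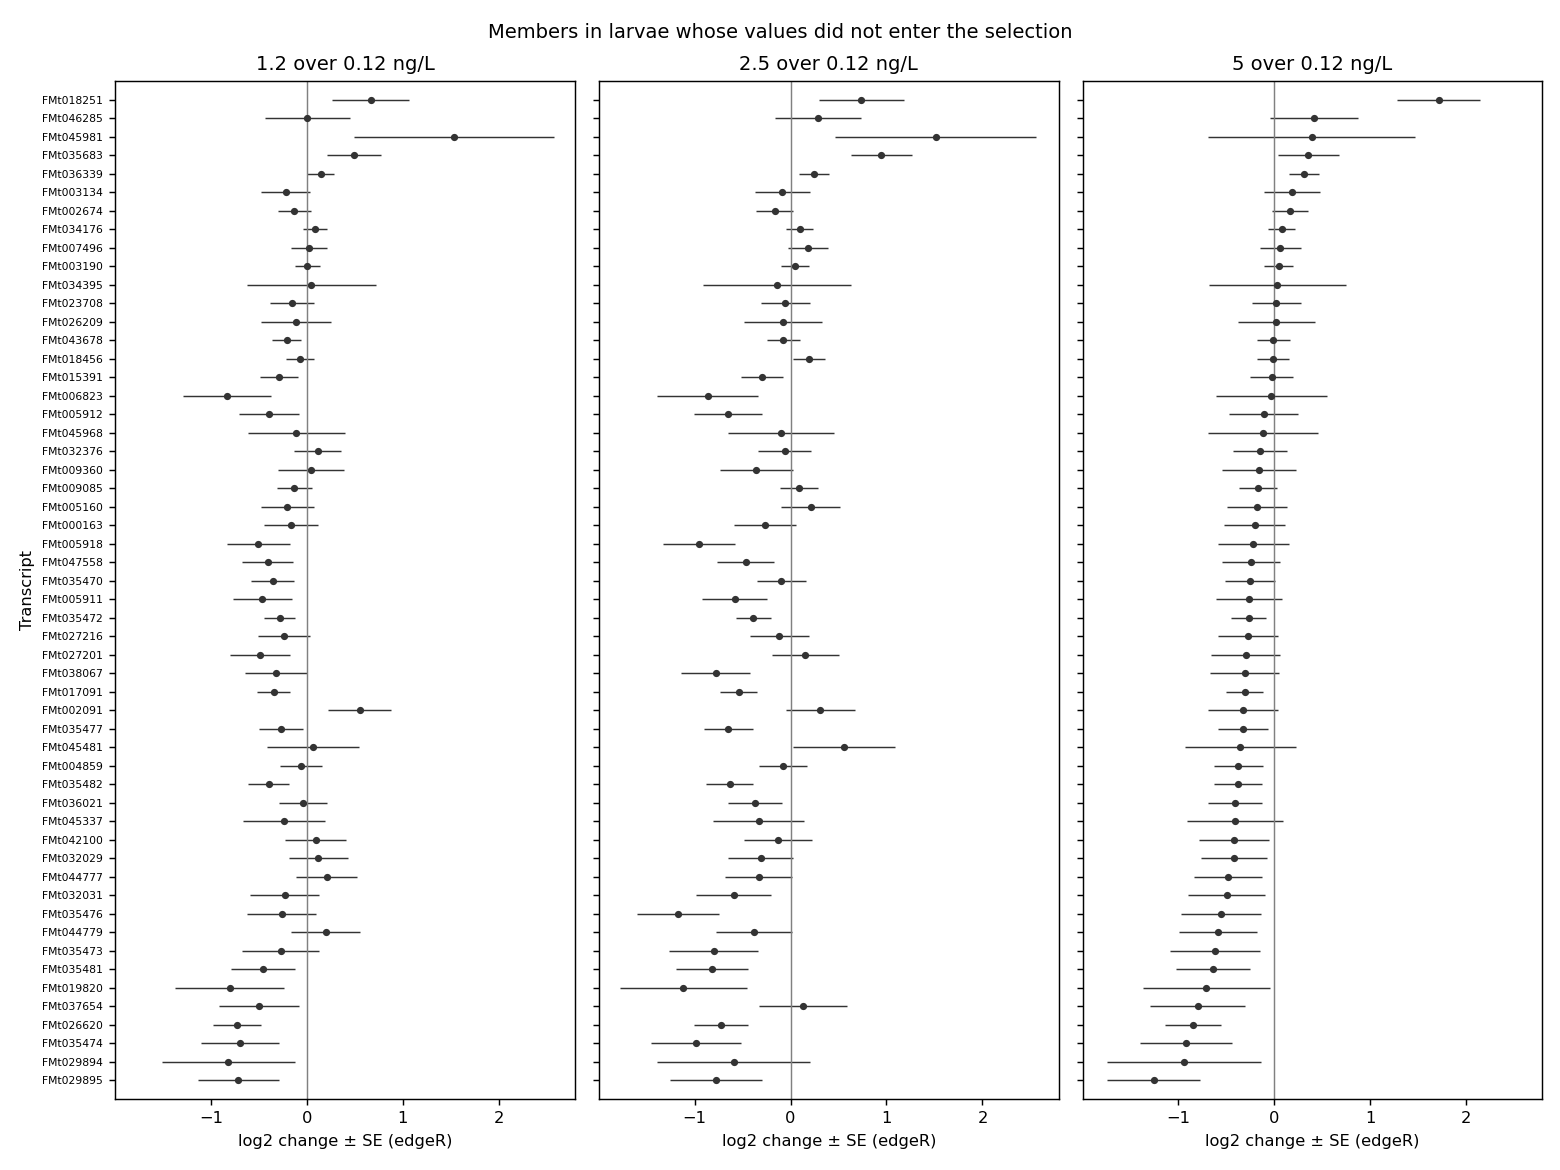
Log2 changes from edgeR for the 54 tested members at 1.2, 2.5 and 5 ng/L, each over 0.12 ng/L, with an SE derived from its F statistic. Rows are ordered by the change at 5 ng/L. No member was called in any panel, and 41 of 54 lie below 0 at 5 over 0.12 ng/L.

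Differences between the 3 experiments were tested in the same 82 larvae. A single member, FMt044777, was called (edgeR adjusted p = 0.0418), against 2.48% of all transcripts. It was lower in experiment 3 than in experiment 1 by 1.02 ± 0.28 (SE, log2), with a difference of -0.09 ± 0.28 between experiments 2 and 1. At 10 ng/L its larvae above the highest control were instead 1 of 10, 1 of 9 and 3 of 9 in experiments 1, 2 and 3. The call was lost with limma-voom (adjusted p = 0.105), and without the library in which it was highest, larva 18 at 1.2 ng/L of experiment 1 with 42.7 CPM (edgeR adjusted p = 0.0524). The slope on log2 concentration differed between experiments for 0 members by edgeR (0% of all transcripts called) and 0 by limma-voom, with 16 and 14 members at an unadjusted p under 0.05. By edgeR the 16 are 29.6% of the 54 members, and 7.26% of all transcripts had such a p. Most of the 16 belong to the FMt035474, FMt002091 and FMt047558 blocks. Their members go together over larvae, so the share does not count separate results.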

How the data were processed

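The authors deposited raw read counts, 1 column per library; the series' design text says that reads were aligned to a set of known fathead minnow mRNAs. The submitters' processing notes name edgeR 3.26.8, limma 3.40.6 and bcl2fastq 2.19.1. The sources used here do not give the aligner, the counter or the strand setting. Per the labels' protocols libraries were made from 250 ng of RNA. All columns matched a sample title (0 unmapped); a row without an identifier (1.64e-05% of reads) was dropped. None of the identifiers (0) matched the 64593 reference genes. Over 503 pairs of libraries within a group and experiment, chi-square was at least 9.44 times its degrees of freedom, so none of these pairs were copies. Pairs across groups or experiments were not compared in this way.

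The members and tests were chosen with earlier results of these data known. CPM use column sums. Tests used edgeR 4.0.16 in R 4.3.3: filterByExpr, TMM, and a robust quasi-likelihood fit of group or log2 concentration plus experiment, with calls at an adjusted p under 0.05; the 5 over 0.12 ng/L fit was tested on simulated counts. Named transcripts are the first 15 members, members called in a test, the best 3 of each block of at least 4, and the 3 on either side of the limit of 60; others are named for a stated reason. Alternatives were RLE scaling, no filter, limma-voom 3.58.1, DESeq2 1.42.0, other covariates, other sets of libraries and other settings of the rule.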

Additional observations from a re-analysis of the deposited data

How the results depend on the processing

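The list depends on its settings. Of the 60 members, 43 to 56 stayed under TMM-adjusted totals, other constants, other level minimums, other median limits or without the 9 shallow libraries. Only 20 stayed with the 80th percentile, 37 with the 95th and 20 with the 90th percentile of controls as the ceiling. Without experiment 1, 2 or 3, 17, 25 and 33 stayed. In the concentration tests at 0.12 to 5 ng/L the count of 0 members held in every setting run except 1: without experiment 3, FMt026620 was called between 1.2 and 0.12 ng/L (1 member). The 1 member that differed between experiments became 0 at an adjusted p under 0.01, 2 without the low-count filter (FMt044411 with FMt044777) and 0 without the highest library of FMt044777, a setting chosen after seeing the data; limma-voom called another member, FMt045337, in place of FMt044777. The cause of these changes was not tested. Without larva 7 at 2.5 ng/L, also chosen after seeing the data for the descriptions, the median larva of its group had 4 members above the highest control (4.5 with it), 38 members had a median above the control median (35 with it), the first ratio was 2.39 (2.64 with it), and the correlation of FMt036339 with FMt043679 was -0.37 (-0.39 with it). With the title number as a replicate block, 0 members were called in the 3 comparisons, the joint test and the trend. The numbers did not pair larvae: same-numbered larvae of different concentrations correlated at a median of -0.02 over 102 pairs, and 8 of 70 larvae matched their own number best. The block could not be fitted to experiment differences, since each number belongs to 1 experiment. The trend was not run on all 6 groups, as control has no log2 concentration. Depth limits FMt043679 and FMt043682, which rest on 0 to 3 reads per control library.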

Other observations

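Transcripts whose identifiers fall inside the runs of members, named after their values were seen, were outside the list for their level or their ratio. FMt043680, between FMt043679 and FMt043681, was at 0 to 2.47 CPM at 10 ng/L, against 0 to 0.083 CPM in controls, and lay above the highest control in 9 of 28 larvae. Its 90th percentile of 0.670 CPM missed the minimum of 1 CPM. Its highest larvae were 33 with 2.47 CPM, 72 with 1.41 CPM and 52 with 0.728 CPM, all of them among the 7 larvae in which the 4 members of that run were high. FMt044778, between FMt044777 and FMt044779, was at up to 1.48 CPM at 10 ng/L, against up to 0.429 CPM in controls. Its ratio of 1.47 was past that of the last member, and its 90th percentile of 0.704 CPM missed the minimum. FMt005917 passed the minimum and ranked 96, with a ratio of 1.28. FMt035475 and FMt005914 had ratios of 1.07 and 0.660, below that of the last member, with 90th percentiles of 0.840 and 0.499 CPM.

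Among larvae at 0.12 to 5 ng/L, 7 had more than 20 members above their highest control, and they differed in which block was high. Of the kept transcripts, the median larva at 0.12, 1.2, 2.5 and 5 ng/L had 2.17%, 2.08%, 3.63% and 1.81% above. The share in these single larvae is not given. The choice favoured transcripts whose highest control was low, so nothing about a response is read from the counts below. Larva 12 at 0.12 ng/L had 29 members, and the other 6 had 21 each, namely larva 2 at 0.12 ng/L, larvae 18 and 67 at 1.2 ng/L, larvae 8 and 12 at 2.5 ng/L, and number 27 of the 5 ng/L group. Of the 10 members of the FMt035474 block, the 0.12 ng/L larva 12 and the 1.2 ng/L larva 67 had all 10 above. The others, in the order given, had 9, 1, 3, 7 and 6. Larva 18 at 1.2 ng/L, with 1 of these, had all 7 members of the FMt047558 block above. It had 0.924 CPM of FMt030408, inside the control range of up to 1.07 CPM. The median of its group was 10.8 CPM, and 28 of the 30 larvae lay above the highest control for FMt030408. The cause was not tested.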
